A study of Equus caballus with 4 samples.

Results

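The interleukin-1 (IL-1) system, together with *IL6* and *IL8*, was examined in equine satellite cells given gamma-oryzanol (GO). The members were 10 genes: the receptors *IL1R1*, *IL1RAP*, *IL1RL1* and *IL-1RII*, the ligands *IL1A*, *IL1B* and *IL18*, the antagonist *IL1RN*, and the cytokines *IL6* and *IL8*. A noncontrol probe was taken as a member if its gene name in the array files was one of these symbols, in upper or lower case, with *IL1R2* also read as *IL-1RII*. This gave 31 of the 43603 probes on the array and 10 of the 14567 genes with a symbol.

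Satellite cells are the stem cells of skeletal muscle, and GO is a natural product of rice. Primary cells from the semitendinosus muscle of 6-month-old colts were differentiated in medium with 2% horse serum, and GO was added after day 2. GO-treated cells received 125 nM GO for 24 h, control cells received the vehicle alone, and both groups held 0.04 µl/ml DMSO and were collected on day 3 of differentiation. On each of 4 arrays, Cy5-labeled cRNA of GO-treated cells and Cy3-labeled cRNA of control cells were hybridized together. The dyes were never exchanged, so an effect of the dye and an effect of GO cannot be told apart. Muscle of 6 horses was used, and pre-plating served to lower the number of fibroblasts. The methods report both the choice of a line for its viability and fusion and the plating of every isolation in its own well. The labels call the 4 arrays biological replicates, so whether they stand for different wells, cultures or horses is not settled.

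IL-1 alpha and IL-1 beta, the products of *IL1A* and *IL1B*, bind the receptor IL1R1, which then recruits the accessory protein IL1RAP. The pair signals through MYD88 and IRAK kinases to NF-kB, a transcription factor that switches on cytokine genes such as *IL6* and *IL8*. Braking arms are built into the system: IL1RN occupies the receptor without signaling, and IL-1RII is a decoy that binds ligand but has no signaling domain.

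Most member probes were near or below the background of the arrays. Of the 31 probes, 14 were above background on no array in either channel. These were all 3 probes of *IL1A*, all 4 probes of *IL1B* and 7 of the 10 probes of *IL1RN*. *IL18* alone among the members was above background on all 4 arrays in both channels. *IL6* and *IL1RAP* reached this in the control channel, and *IL-1RII* in the GO channel. *IL1R1* was above background on 3 arrays in each channel, *IL8* on some arrays in both, and *IL1RL1* on 2 arrays in the control channel and 0 in the GO channel.

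**Figure D1:**
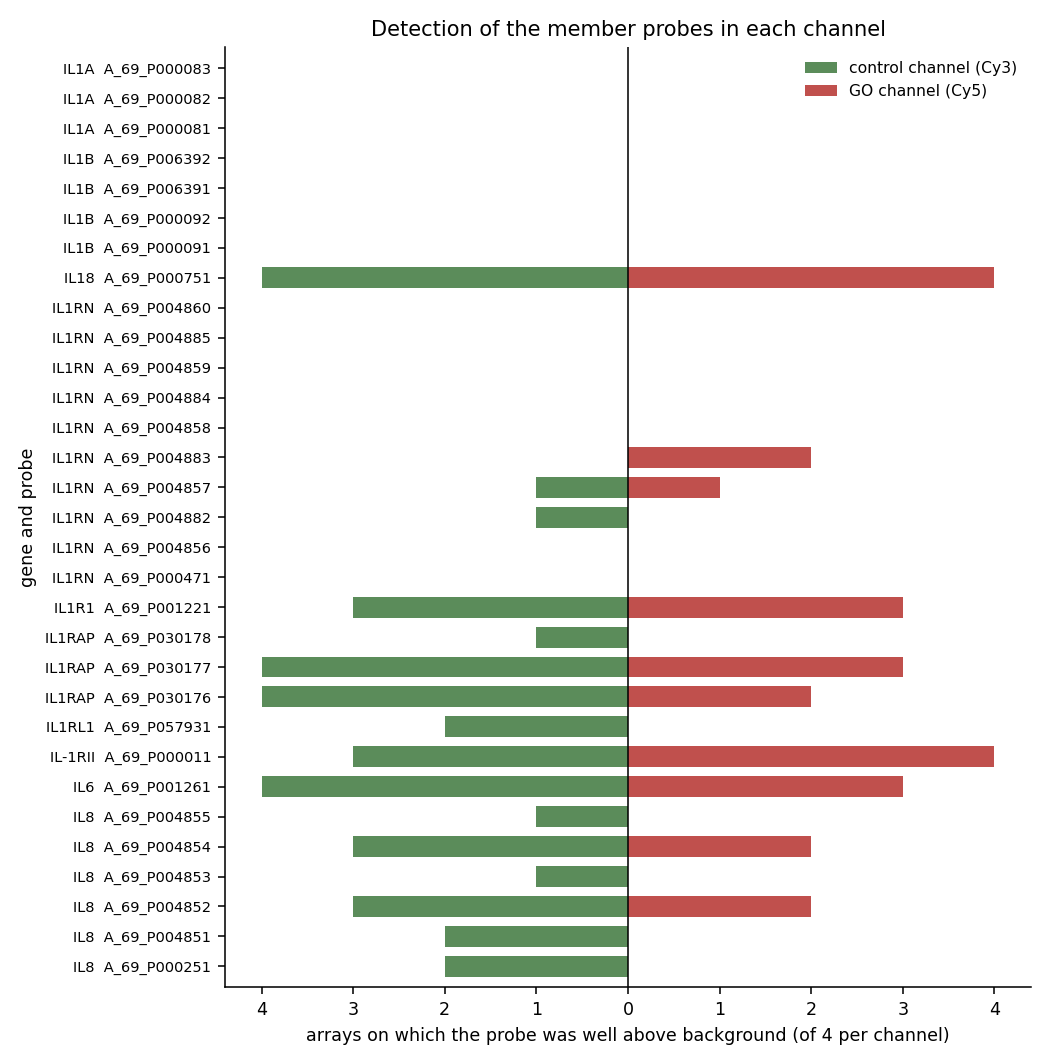
Number of arrays, of 4, on which each member probe was well above background, with the control channel (Cy3) as bars to the left and the GO channel (Cy5) as bars to the right, 1 line per probe. The 14 probes without a bar belong to *IL1A*, *IL1B* and *IL1RN*, and *IL18* is the gene with full bars on both sides.

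The arrays differed in how much they detected. The share of noncontrol spots above background in the control channel was 66.9, 68.9, 66.6 and 63.5% on arrays 1 to 4. In the GO channel it was 67.0, 66.5, 62.0 and 57.4%, so that array 4 was the poorest in both channels. The dimmest signal still called above background in the control channel was 16.7, 11.9, 13.1 and 17.5 on arrays 1 to 4. In the GO channel it was 16.9, 15.2, 20.2 and 30.0, higher on each array and highest on array 4. A dim signal of equal size could thus be called in the control channel and missed in the GO channel. Where neither channel gave a usable signal the ratio is listed at 0 in the files, as were 42 of the 124 member values.

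A probe was tested if it was above background on all 4 arrays in at least 1 channel, which left 26833 probes in all and 5 member probes of 4 genes. Two-sided limma tests set the log2 ratios of GO-treated over control against 0, and Benjamini-Hochberg adjustment covered all 26833 probes. To be called changed, a probe needed both an adjusted p up to 0.05 and a 1.3-fold difference or more. Among the members, 3 genes passed, *IL-1RII* higher and *IL1RAP* and *IL18* lower in GO-treated cells, and *IL6* did not. Across the array 2399 probes passed (8.94%), and by the brightest tested probe of each gene 833 of 9478 genes did (8.79%), 317 of them higher (3.34%) and 516 lower (5.44%). *IL-1RII* entered the test only through the GO channel and *IL1RAP* and *IL6* only through the control channel, so the count over these few genes supports no statement about the system as a whole.

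**Figure D2:**
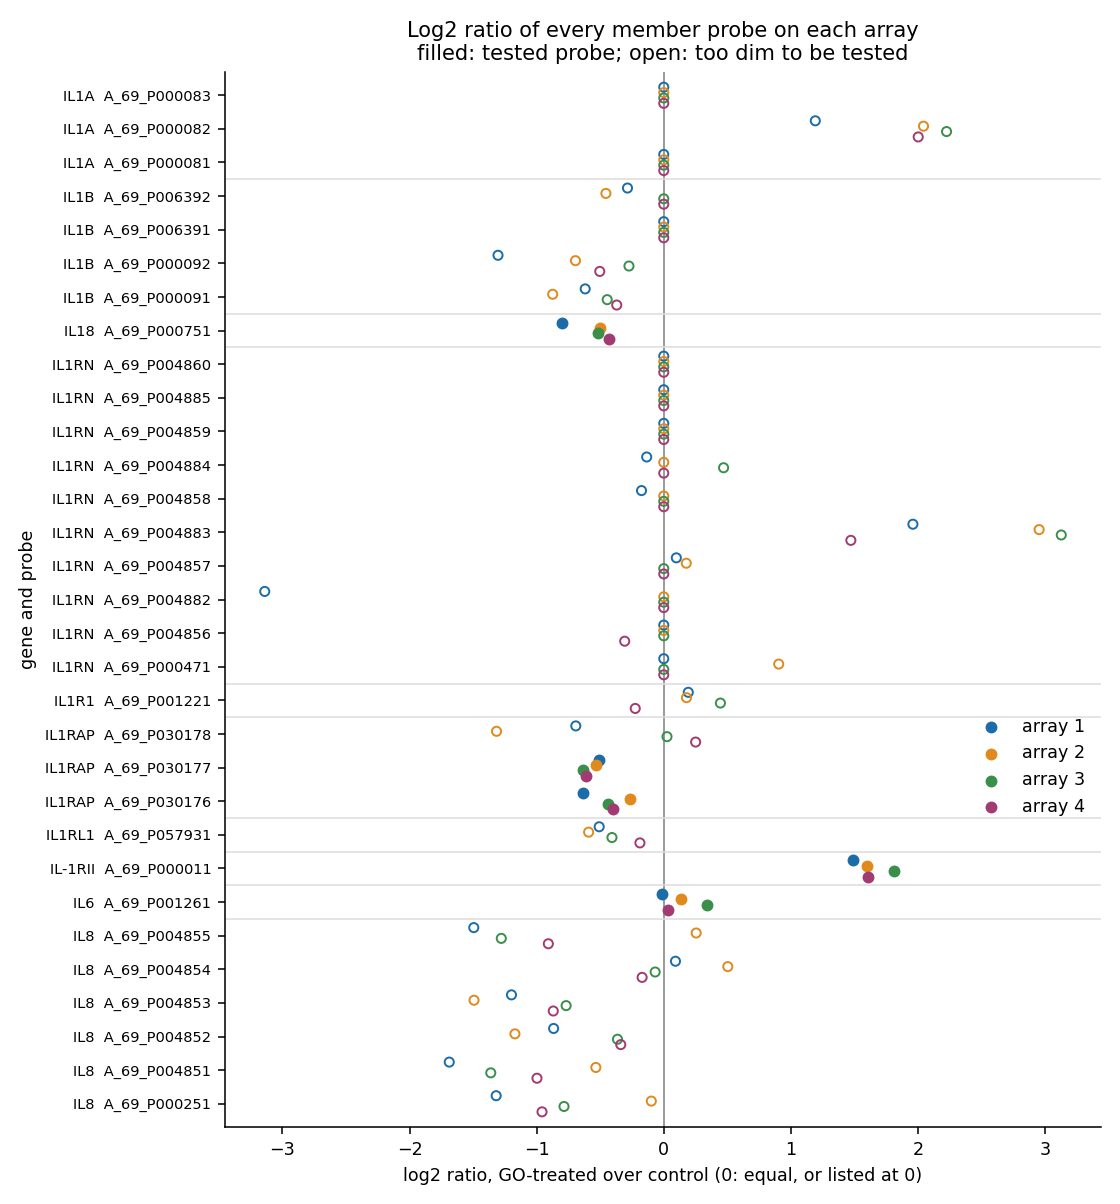
Log2 ratio of GO-treated over control (horizontal axis) for every member probe, 1 point per array in its color, filled for tested probes and open for probes too dim to be tested. The 4 filled points of *IL-1RII* lie between 1.49 and 1.81, those of *IL18* between -0.80 and -0.43, and points on the 0 line include values listed at 0.

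The decoy receptor *IL-1RII* rose in GO-treated cells, and it did so on every array. Its transcript was read by 1 probe, A_69_P000011, which starts at base 1258 of the transcript and lies at chr15:4173797-4173856 (EquCab1, minus strand), written here 5′ to 3′ without capitals since no part of it is singled out. The sequence is shown because the rise rests on this single probe.

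A_69_P000011: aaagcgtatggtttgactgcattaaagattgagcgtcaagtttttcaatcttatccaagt

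In control cells the *IL-1RII* signal was 24.4, 20.8, 25.0 and 19.1 on arrays 1 to 4, in arbitrary units, and the last of these was not above background. In GO-treated cells it was 68.4, 62.9, 87.8 and 58.0. Every GO value was higher than every control value. How many of the other tested probes separate in this way was not counted, so the separation only describes these signals. The log2 ratios were 1.49, 1.60, 1.81 and 1.60, with array 3 the highest and array 1 the lowest. Averaged over the arrays, the rise came to 1.63 ± 0.14 (SD, n = 4), and the limma test put its adjusted p at 0.000437. The probe entered this test only through the GO channel, the brighter of the pair. No fold is given, since the control signal of array 4 was not above background. With normexp background correction and loess in place of the processed ratios, the rise was 0.53 on the log2 scale, with an adjusted p of 0.0189 in limma. The offset of 50 added there is larger than the control signals, so the ratio of a dim probe shrinks by construction. Over all alternatives with a value, the adjusted p lay between 0.000205 and 0.0409. In a bulk culture, a change in the number of cells that carry a transcript and a change in RNA per cell cannot be told apart, which holds for every ratio given here.

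The accessory protein of the signaling receptor, *IL1RAP*, moved the other way and fell in GO-treated cells. It had 3 probes, tiled in steps of 30 bases over chr19:24181381-24181500 (EquCab1, plus strand), so that neighbors share 30 bases and are not independent of each other. The 2 that were tested are given 5′ to 3′, to show where on the transcript the fall was read.

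A_69_P030177: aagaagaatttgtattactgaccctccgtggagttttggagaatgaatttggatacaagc
A_69_P030176: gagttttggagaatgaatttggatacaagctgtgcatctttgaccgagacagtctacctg

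At A_69_P030177, which starts at base 1329, the control signal was 42.7, 34.9, 38.3 and 29.0 on arrays 1 to 4. The GO signal was 29.9, 24.1, 24.6 and 19.0, and the last was not above background. GO was below control on each array, although the ranges met, since the GO signal of array 1 was higher than the control signal of array 4. The log2 ratios were -0.51, -0.54, -0.64 and -0.61. Over the arrays they averaged -0.57 ± 0.06 (SD, n = 4), for which the limma test put the adjusted p at 0.00326. This probe entered the test only through the control channel, the brighter of the pair. Because the GO signal of array 4 was not above background, no fold is given.

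The neighboring *IL1RAP* probe A_69_P030176, which starts at base 1359, had log2 ratios of -0.63, -0.26, -0.44 and -0.40. They averaged -0.43 ± 0.15 (SD, n = 4), and limma gave an adjusted p of 0.0138. Its control channel was above background on 4 arrays and its GO channel on arrays 1 and 2 only, so it was tested through the control channel and no fold is given. All 4 arrays were thus lower with GO at both tested probes. The third probe, A_69_P030178, was above background on 1 array in the control channel and on 0 in the GO channel, and its log2 ratios of -0.69, -1.32, 0.03 and 0.25 went both ways. The fall of *IL1RAP* lost its call under normexp with loess, where the ratio of A_69_P030177 was -0.16 (adjusted p of 0.0707 in limma). The offset of 50 added there is larger than the signals of this probe, so its ratio shrinks by construction. With signals raised to the detection floor of their channel, the ratio of A_69_P030177 was -0.41, with an adjusted p of 0.0598 in limma. That floor is higher in the GO channel, so that a probe at the floor in both channels reads 0.44, and a fall of a dim probe shrinks by construction. At A_69_P030177 the floor raised only the GO signal of array 4, which was not above background, so the lost call there came from that array. Over the alternatives of A_69_P030177 the adjusted p in limma or the plain one-sample test lay between 0.00187 and 0.0707. A_69_P030176 lost its call in 5 alternatives beside the signal floor (-0.21, adjusted p of 0.390). These were normexp with loess (-0.13), leaving out array 1 (-0.37) or array 3 (-0.43, adjusted p of 0.0544), no filter on dim probes (adjusted p of 0.0688) and the plain one-sample test (adjusted p of 0.0981). Over all its alternatives the adjusted p lay between 0.00246 and 0.390.

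*IL1R1*, the receptor that carries the IL-1 signal, gave no test. Its probe A_69_P001221, at chr15:4024117-4024176 (EquCab1, minus strand), had control signals of 66.9, 29.7, 19.0 and 15.5 and GO signals of 76.5, 33.6, 25.8 and 13.2 on arrays 1 to 4. Neither channel was above background on array 4. The log2 ratios were 0.19, 0.18, 0.45 and -0.22, a mean of 0.15 ± 0.28 (SD, n = 4). The spread between arrays was larger than the mean, and the arrays differed in sign. Array 1 had the highest and array 4 the lowest signal in both channels, so arrays differed by more than the channels of an array did.

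*IL1RL1*, the receptor for IL-33, was dim. Its probe at chr15:3853089-3853148 (EquCab1, minus strand) was above background only in the control channel, on arrays 2 and 4. The dimmest signal called above background was higher in the GO channel on each array, so this difference in detection is not read as a change. The log2 ratios were -0.51, -0.59, -0.41 and -0.19, with a mean of -0.42 ± 0.17 (SD, n = 4). All 4 arrays were lower in GO-treated cells, yet the signals were too low for a test or for a bound on the fold.

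The IL-1 receptor genes lie side by side in the genome. On chromosome 15, probes of *IL18RAP*, *IL18R1*, *IL1RL1*, *IL1RL2*, *IL1R1* and *IL-1RII* fell within 412 kb (EquCab1). Of these 6 neighbors, *IL-1RII* was the only gene with a tested probe. The ligand genes form a second group on the same chromosome, with probes of *IL1A*, *IL1B*, *IL37*, *IL36G*, *IL36A*, *IL36B*, *IL36RN*, *IL1F10* and *IL1RN* within 353 kb. None of these 9 genes had a tested probe, so 0 could be called, by limma or by the plain one-sample test.

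*IL18*, a ligand of the family that is made as a precursor and cut by caspase-1, fell in GO-treated cells. Its probe A_69_P000751 starts at base 427 and lies at chr7:17314944-17315003 (EquCab1, minus strand). The sequence is given 5′ to 3′, because this is the one ligand among the members whose level could be measured in every sample.

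A_69_P000751: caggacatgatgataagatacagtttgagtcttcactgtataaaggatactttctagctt

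The control signal of *IL18* was 1706, 1062, 1600 and 1297 on arrays 1 to 4. The GO signal was 977, 748, 1119 and 962. On each array the GO channel was the lower, while the ranges overlapped, since the control signal of array 2 was under the GO signal of array 3. The log2 ratios were -0.80, -0.51, -0.52 and -0.43, with array 1 the lowest. The mean was -0.56 ± 0.16 (SD, n = 4), a 1.48-fold fall with an adjusted p of 0.00711 in limma. The call was lost when the channels were fitted without pairing them by array (-0.56, adjusted p of 0.0765). It was also lost without the filter on dim probes (adjusted p of 0.0556) and by the plain one-sample test (adjusted p of 0.0856), where the ratio itself was the same. Over its alternatives the adjusted p lay between 0.00142 and 0.0856.

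**Figure D3:**
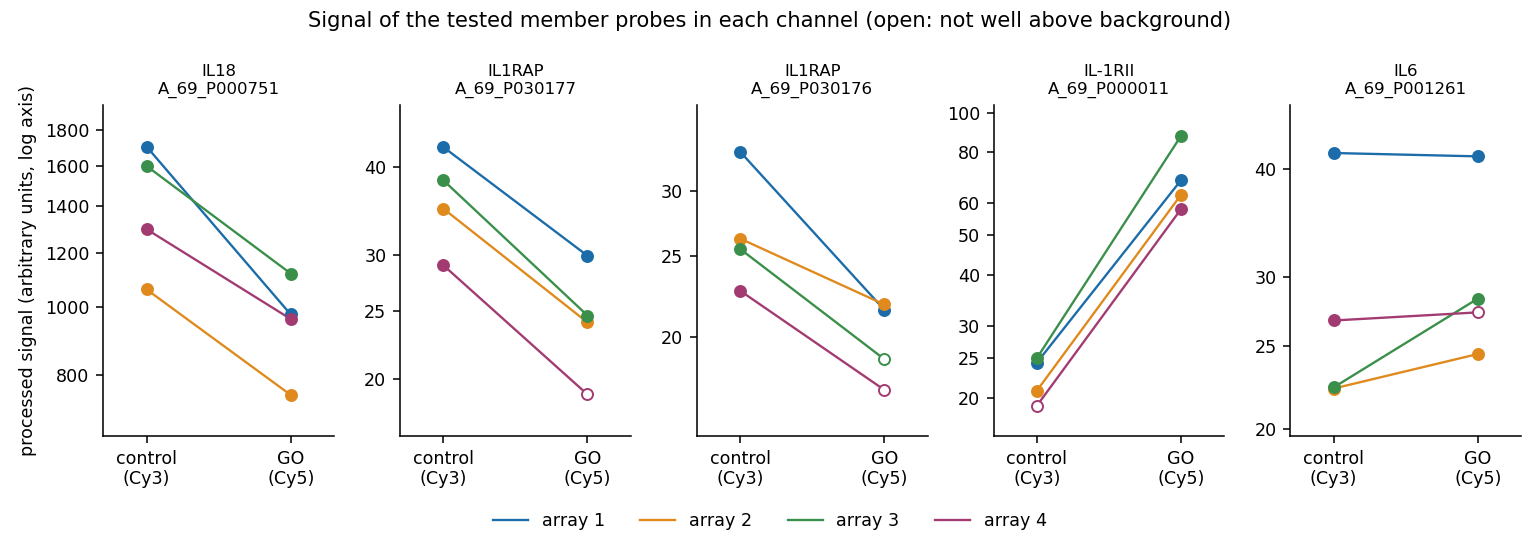
Processed signal (vertical log axis, arbitrary units, with its own range in each panel) of the 5 tested member probes in the control channel and the GO channel, with a line joining the channels of an array and open points where a signal was not above background. All 4 lines rise for *IL-1RII*, from between 19.1 and 25.0 to between 58.0 and 87.8, and all 4 fall for *IL18* and for both probes of *IL1RAP*.

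The classical IL-1 ligands were not detected. *IL1B* had 4 probes, none above background in either channel. Of its 16 values, 6 were listed at 0 and the other 10 were negative, with probe means from -0.69 to 0. None of the signals behind these ratios was called above background, so no change is given.

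*IL1A* had 3 probes, also without any signal above background. The middle one, A_69_P000082, had log2 ratios of 1.19, 2.04, 2.23 and 2.00, a mean of 1.87 ± 0.46 (SD, n = 4). Its GO signals were 8.64, 11.1, 14.6 and 14.5, below the dimmest signals called above background, and its control signals were 3.78, 2.69, 3.12 and 3.63. The probes on either side share 30 bases with it, and all 8 of their values were listed at 0. Probes of *IL1A* thus disagreed, and no fold is given. Without the filter on dim probes, A_69_P000082 was called with an adjusted p of 0.0456 in limma.

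The receptor antagonist *IL1RN* had 10 probes, of which 9 were placed at nearly the same site, between bases 305 and 309 of the transcript. Across its 40 values, 28 were listed at 0, 8 were positive and 4 negative. At 4 of the starts the array carries the same 60 bases in a pair of forms that differ at 2 neighboring positions. The pair at base 307 is shown, because its forms had the most unlike means over the 4 arrays. Both lie at chr15:12624277-12625479 (EquCab1, plus strand), where 60 bases of probe span 1203 bases of genome and so cross an intron. They are written 5′ to 3′, with the differing bases in capitals.

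A_69_P004858: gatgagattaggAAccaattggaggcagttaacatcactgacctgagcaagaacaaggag
A_69_P004883: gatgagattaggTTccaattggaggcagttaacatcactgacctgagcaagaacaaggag

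Counted from 1 at the 5′ end, the forms differ by A13T and A14T, the base of A_69_P004858 being given first. A_69_P004883 had log2 ratios of 1.96, 2.95, 3.13 and 1.47, a mean of 2.38 ± 0.79 (SD, n = 4). Its signal was above background on arrays 2 and 3 in the GO channel, at 20.4 and 26.3, and on 0 arrays in the control channel. No fold is given, since the control signal was not measured and the GO signal on 2 arrays only.

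The other form of the *IL1RN* pair, A_69_P004858, had log2 ratios of -0.17, 0, 0 and 0. It was above background on 0 arrays in either channel. At base 308 the pair differs by A12T and A13T, and the second form had -3.14 on array 1 and 0 on arrays 2 to 4. Its first form, A_69_P004857, had 0.10, 0.18, 0 and 0. On array 1 the first form was above background in both channels, at 38.9 and 41.6, and the second in the control channel only. At bases 305 and 306 the probe means of both forms lay between 0 and 0.08. Overlapping probes of *IL1RN* therefore did not give 1 value for the gene, and no probe of it was tested.

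*IL6*, a cytokine that IL-1 induces and that muscle cells also secrete, did not pass the test. Its probe A_69_P001261 starts at base 530 and lies at chr4:53966444-53966503 (EquCab1, plus strand). It is given 5′ to 3′ as the only probe behind the *IL6* result.

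A_69_P001261: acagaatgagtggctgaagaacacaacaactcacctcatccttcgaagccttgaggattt

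Control signals of *IL6* were 41.8, 22.3, 22.4 and 26.7 on arrays 1 to 4, all above background. GO signals were 41.4, 24.4, 28.3 and 27.3, with array 4 not above background. The channels overlapped almost fully, and array 1 was the highest in both. The log2 ratios were -0.01, 0.13, 0.34 and 0.03, higher on 3 of 4 arrays. The mean was 0.12 ± 0.16 (SD, n = 4), and limma gave an adjusted p of 0.285. Centring each array without lowess turned the sign, at -0.00518 with an adjusted p of 0.970 in limma, the highest of a range that began at 0.171.

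*IL8*, a chemokine that attracts neutrophils, was too dim to be tested. It had 6 probes on 10 spots, and 21 of the 24 values were negative, 3 positive and 0 listed at 0. The probes were above background in 12 of 24 cases in the control channel and in 4 of 24 in the GO channel. The dimmest signal called above background was higher in the GO channel on each array, so these counts do not compare the level of *IL8*. On no array were all of them above background in both channels.

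The *IL8* probes also disagreed among themselves. A set of 5 was placed in steps of 1 base, from base 247 to base 251, over chr3:37422771-37423112 (EquCab1, plus strand), and crosses an intron. All 5 share 56 bases, in capitals here, and direct neighbors share 59. The pair below is written 5′ to 3′, since its members gave unlike ratios from nearly the same sequence.

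A_69_P004854: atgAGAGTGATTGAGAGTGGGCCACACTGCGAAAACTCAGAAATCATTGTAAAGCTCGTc
A_69_P004853: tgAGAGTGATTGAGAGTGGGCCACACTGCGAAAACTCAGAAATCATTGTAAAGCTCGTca

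A_69_P004854 had log2 ratios of 0.09, 0.50, -0.07 and -0.17, a mean of 0.09 ± 0.30 (SD, n = 4), and was above background on 3 arrays in the control channel and 2 in the GO channel. A_69_P004853, which starts 1 base later, had -1.20, -1.49, -0.77 and -0.87, a mean of -1.08 ± 0.33 (SD, n = 4), and was above background on 1 array in the control channel and 0 in the GO channel. The ranges of these neighbors did not overlap. The other 3 probes of the set had means of -0.86, -0.69 and -1.15. Within an array, the SD over the 5 probes was 0.70, 0.87, 0.56 and 0.38 on arrays 1 to 4. The sixth *IL8* probe, A_69_P000251, starts at base 938 and was spotted 5 times. Its log2 ratios were -1.32, -0.10, -0.78 and -0.96, a mean of -0.79 ± 0.51 (SD, n = 4), with 2 arrays above background in the control channel and 0 in the GO channel. Overlapping probes are not replicates, and no fold for *IL8* is given.

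**Figure D4:**
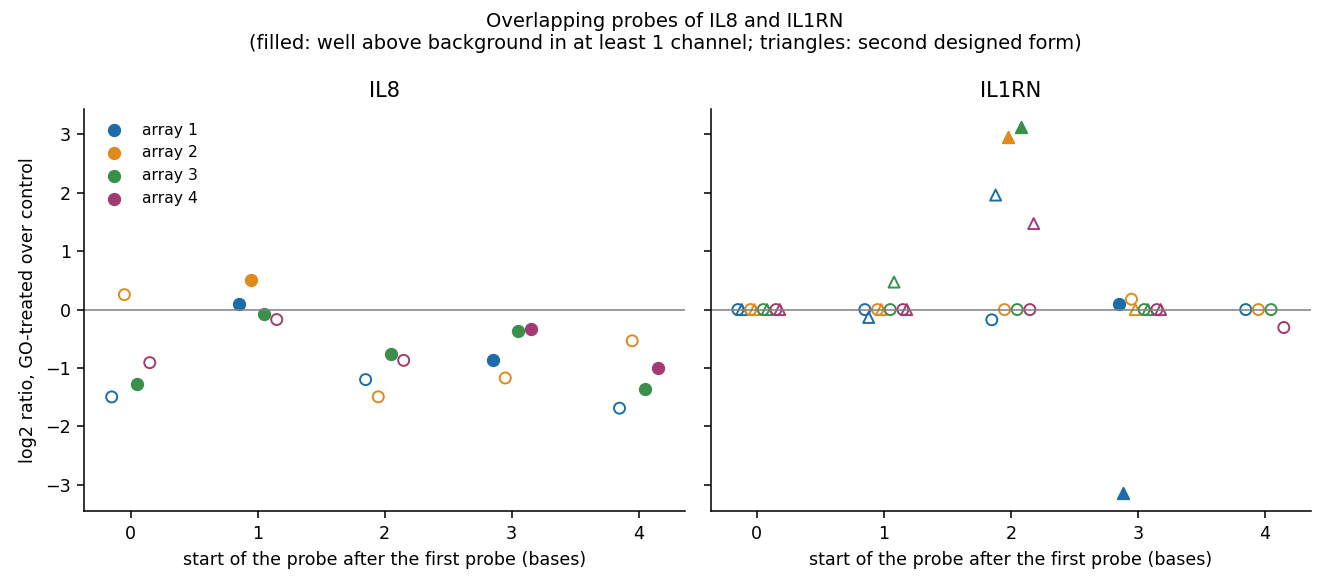
Log2 ratio of GO-treated over control (vertical axis) of the overlapping probes of *IL8* (left) and *IL1RN* (right) by the start of the probe in bases after the first one, with 1 color per array, filled where at least 1 channel was above background, and triangles for the second form of *IL1RN*. Among the *IL8* probes, means run from -1.15 to 0.09, and in *IL1RN* a single start holds the 4 points between 1.47 and 3.13.

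The genes whose ratios on the 4 arrays lay nearest to those of *IL-1RII*, by Euclidean distance among 9474 genes, were *ACSM3*, *EGR1* and *RPRD1B*. *EGR1*, an immediate early transcription factor, had a mean log2 ratio of 1.17 ± 0.28 (SD, n = 4) at a distance of 1.00. *ACSM3*, a medium-chain acyl-CoA synthetase, had 1.25 ± 0.40 (SD, n = 4) at 0.92, and *RPRD1B* had 1.14 ± 0.28 (SD, n = 4) at 1.15. The control channel of *RPRD1B* was above background on 2 arrays, so its ratio and distance rest on dim control signals. All 3 were lower than *IL-1RII* on average. The ratio of *IL-1RII* ranked 3 from the top among the 26833 probes tested, so few genes could lie near it. The distance also counts the size of the ratios, so it does not show whether a gene followed the pattern of *IL-1RII* over the arrays. Nearest to *IL6* were *TRIM42*, *SLC43A1* and *SLC38A8*, at distances of 0.052, 0.082 and 0.085, the last with its GO channel above background on 2 arrays. None of these 3 passed the test in limma, with means of 0.10, 0.11 and 0.12, and distances this small say little, since most tested ratios were close to 0. *IL8* was not tested and was given no nearest gene.

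The rest of the pathway was read from 6 lists of 111 genes, of which 105 had a probe on the array and 67 were tested. By the brightest tested probe of each gene, 10 passed, 5 higher and 5 lower, or 14.9% of those tested beside 8.79% over all genes. The median log2 ratio over all tested probes was 0.0047. Of the 10 calls, 2 were also made with normexp and loess and 2 without the pairing by array, with the same sign for all 10 in each. The offset of normexp shrinks the ratios of dim probes by construction. Without array 2 the count was 4 and without array 4 it was 6, and *CXCL10*, *NOS2* and *NFKBIZ* were called whichever array was left out.

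Most other genes of the IL-1 family were not detected. Of 14, 9 were above background on no array and 3 were tested: *IL33*, *IL18BP* and *IL1RAPL2*. None passed in limma, with 1 gene at an unadjusted p of at most 0.05 and 0 by the plain one-sample test. Over the whole array, 9580 of the 26833 probes tested had an unadjusted p this low in limma. *IL33*, the ligand of IL1RL1, had a mean of 0.00, and *IL18BP*, which neutralizes IL-18, 0.13. *IL1RAPL2* had -0.67 with an adjusted p of 0.0655 in limma. Its GO channel was above background on 0 arrays, so it was tested through the control channel alone and the size of the ratio was not measured. The ratio was -0.15 with normexp and loess, and -0.86 and called with centring in place of lowess. These 3 genes were named after their values were seen.

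Genes that mature IL-1 did not pass either. Of 10 inflammasome and caspase genes, 5 were tested and 0 passed in limma, while 0 were called by the plain one-sample test. In limma 3 were at an unadjusted p of at most 0.05, beside 9580 of 26833 probes over the array. Their median log2 ratio was -0.18. *CASP1*, the protease that cuts IL-1 beta and IL-18, was not above background on any array in either channel, nor were *NLRP1*, *NLRC4*, *AIM2* and *P2RX7*.

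In the signaling chain below the receptor, 27 of 34 genes were tested and 2 passed, beside 8.79% over all genes. The median log2 ratio was -0.05. *NFKBIZ*, a nuclear IkB protein that NF-kB induces, had 0.34, 0.42, 0.43 and 0.61 on arrays 1 to 4 and rose, at 0.45 ± 0.11 (SD, n = 4) with an adjusted p of 0.00863 in limma. *NFKBIE*, an inhibitor of NF-kB, had -0.23, -0.50, -0.49 and -0.50 and fell, at -0.43 ± 0.14 (SD, n = 4) with an adjusted p of 0.0121. Both kept their direction but lost their call with normexp and loess and without the pairing by array, and *NFKBIE* also without array 2 (-0.41) or array 3 (-0.41). The adapter *MYD88* had a mean of -0.05 ± 0.20 (SD, n = 4) with an adjusted p of 0.746 in limma, and its 7 probes lay between -0.07 and 0.11. *NFKBIA*, the main IkB gene, had 0.18 ± 0.20 (SD, n = 4) with an adjusted p of 0.184. The kinase *IRAK2*, named after its values were seen, did not pass by its brightest tested probe (-0.13), whereas 2 of its 3 tested probes did, down to -0.57.

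In the IL-6 family with its receptors and JAK-STAT3 genes, 14 of 20 were tested. In limma 0 passed, and by the plain one-sample test also 0. At an unadjusted p of at most 0.05 in limma there were 3, beside 9580 of 26833 probes over the array. The median log2 ratio was -0.03. *IL6ST*, the shared signaling receptor gp130, had 0.18 ± 0.07 (SD, n = 4) with an adjusted p of 0.0744 in limma and was higher on all 4 arrays. *IL6R*, the IL-6 binding receptor, was above background on 1 array in each channel and was not tested, with a mean of -0.18.

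Of the IL-8 receptors, *CXCR2* alone was tested. It was called lower in GO-treated cells, but this call did not hold in most alternatives. Its log2 ratios were -0.39, -0.16, -0.94 and -0.56 on arrays 1 to 4, a mean of -0.51 ± 0.33 (SD, n = 4) with an adjusted p of 0.0358 in limma. The control channel was above background on 4 arrays and the GO channel on 1. The probe was thus tested through the control channel alone, and the size of the ratio rests on dim signals. The call was lost with normexp and loess (-0.10, adjusted p of 0.192), where the offset shrinks dim ratios by construction. The call was lost as well on leaving out array 1 (-0.55), array 3 (-0.37) or array 4 (-0.50). It was also lost, with the ratio still at -0.51, without the filter on dim probes, by the plain one-sample test and without the pairing by array. The signal floor, which shrinks a fall of a dim probe by construction, took it away too, and with the stricter filter the probe was not tested. *DARC*, a scavenging chemokine receptor, was not above background, and no probe carried the name *CXCR1*.

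Genes that NF-kB and IL-1 are known to induce went in both directions. Of 30, 17 were tested and 7 passed, 4 higher and 3 lower, with a median log2 ratio of 0.22. Over all genes, 8.79% passed, 3.34% higher and 5.44% lower. *CXCL10*, a chemokine also induced by interferon, fell, with -2.33, -2.53, -3.54 and -2.27 on arrays 1 to 4. The mean was -2.67 ± 0.59 (SD, n = 4), limma gave an adjusted p of 0.00189, and all 5 probes were called. The control channel was above background on 4 arrays and the GO channel on 1, so the fall was tested through the control channel and its size rests on dim signals, with -1.01 under normexp and loess. *NOS2*, the inducible nitric oxide synthase, fell on all 4 arrays, at -0.99 ± 0.12 (SD, n = 4) with an adjusted p of 0.0012 in limma. Of its 12 probes, 6 were above background on any array and were tested, and 5 were called. *CXCL10* and *NOS2* were the 2 pathway genes called under each scaling tried. *HAS2*, which makes hyaluronan, fell at -0.54 ± 0.37 (SD, n = 4) with an adjusted p of 0.0417, but lost its call whichever array was left out, at -0.36 to -0.65.

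The 4 genes that rose were *ICAM1*, *BIRC3*, *PTGES* and *PTGS2*. *ICAM1*, an adhesion molecule for leukocytes, had 0.55 ± 0.36 (SD, n = 4) with an adjusted p of 0.0352 in limma, and *BIRC3*, an inhibitor of apoptosis, had 0.46 ± 0.27 (SD, n = 4) with 0.0333. *PTGS2* and *PTGES* encode enzymes in succession on the way to prostaglandin E2. *PTGS2* had 0.42 ± 0.19 (SD, n = 4) with an adjusted p of 0.0211, and 1 of its 2 tested probes was called. *PTGES*, named after its values were seen, had 0.44 ± 0.18 (SD, n = 4) with an adjusted p of 0.0162, and all 5 probes were called. All 4 genes were higher on each array. *ICAM1* lost its call without array 1, 2 or 3 (0.47, 0.43 and 0.62), and *BIRC3* without array 2, 3 or 4 (0.44, 0.45 and 0.35). *PTGS2* lost it without array 2 or 4 (0.35 and 0.37) and *PTGES* without array 2 (0.38). With normexp and loess, 1 gene of the list was called higher and 2 lower, and the gene called higher was not among these 4. The chemokine *CCL20*, also named after its values were seen, was split: its brightest tested probe had 0.23 ± 2.27 (SD, n = 4) and did not pass, while its other 4 probes were called lower, down to -0.85.

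**Figure D5:**
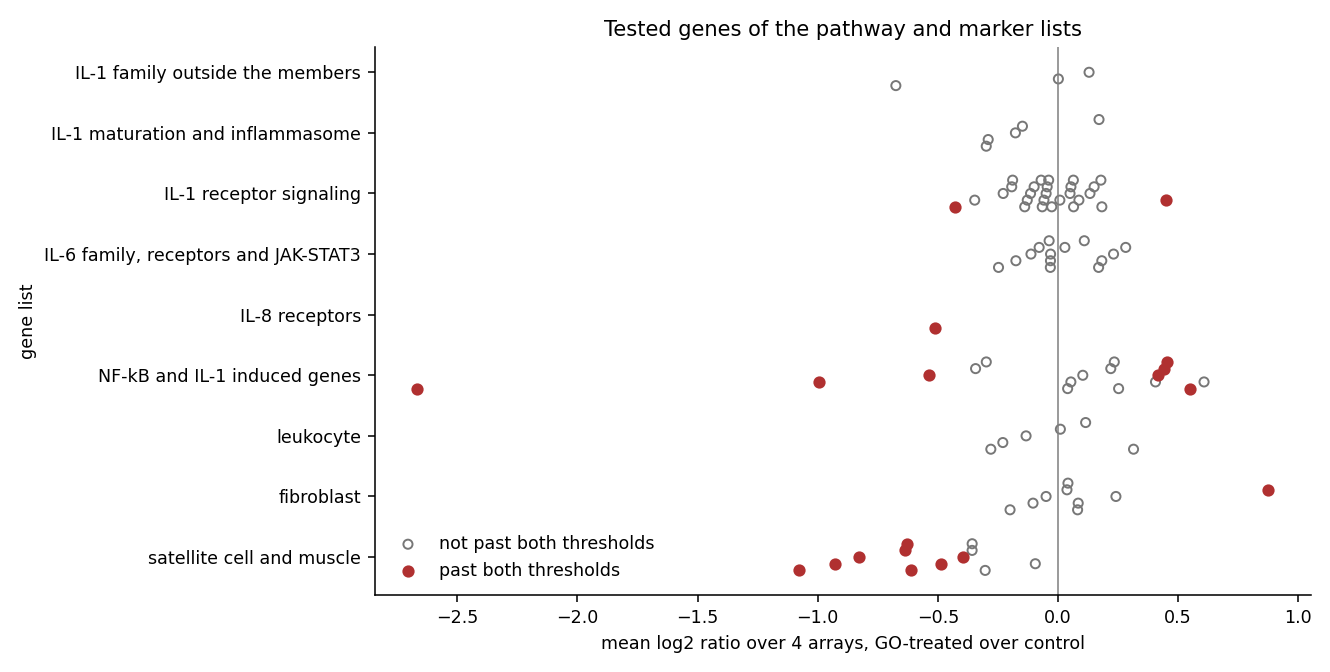
Mean log2 ratio over 4 arrays of GO-treated over control (horizontal axis) for each tested gene of the pathway and marker lists, by its brightest tested probe, filled red where both thresholds were passed. The list of induced genes spreads from -2.67 (*CXCL10*) to 0.61, and 8 of the 12 tested satellite cell and muscle genes are filled, all on the lower side.

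Markers of other cells that could be a source of these cytokines were read in the same way. Of 23 leukocyte markers, 22 were on the array and 6 were tested. None passed in limma, and 0 by the plain one-sample test. At an unadjusted p of at most 0.05 in limma there were 3, beside 9580 of 26833 probes over the array. *CD163*, *ITGAM*, *CD3E*, *CD2*, *CD4*, *CD79A*, *LYZ*, *S100A9*, *MPO*, *TYROBP* and *LAPTM5* were not above background. The summed signal of the list was 16262, 17107, 17706 and 14458 in the control channel and 22490, 20710, 19161 and 16015 in the GO channel, higher with GO on each array. Most of that sum came from a probe named *PTPRC*, the gene of CD45. The median log2 ratio of the 6 tested markers was -0.06. Apart from *PTPRC*, *CD68* (-0.28) and *CORO1A* (-0.23) were lower and *CD14* (0.11) higher on all 4 arrays, while *MS4A1* (-0.13) and *CD3D* (0.01) went both ways, all named after their values were seen. The part of these markers in the *IL-1RII* result was not tested.

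The probes of *PTPRC* disagreed by their place in the transcript. Near the 3′ end, 6 probes between bases 4008 and 4023 were above background on all arrays in both channels, with means from 0.30 to 0.36. The brightest had 0.31 ± 0.19 (SD, n = 4) with an adjusted p of 0.0463 in limma, under the fold threshold, and among the scalings tried it was called only with centring in place of lowess, at 0.52. Between bases 2057 and 2712, 6 probes were above background on no array. Near base 303, 3 probes had means from -0.30 to -0.25. Whether the bright probes near the 3′ end read *PTPRC* was not tested. The level given for *PTPRC*, and with it that of the list, depends on the probe.

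Endothelial and adipocyte markers gave no signal above background. Of the endothelial genes, *PECAM1*, *CDH5*, *KDR*, *TEK* and *VWF* were on the array and undetected, and their summed signal, led by *TEK*, stayed between 27.5 and 39.8 over both channels. The adipocyte genes *ADIPOQ*, *PLIN1*, *FABP4* and *LEP* were also undetected, with *ADIPOQ* the brightest and a summed signal between 17.3 and 28.3. With no tested probe, 0 genes of either list could be called by limma or the plain one-sample test, and 0 were at an unadjusted p of at most 0.05.

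All 9 fibroblast markers were tested. The summed signal, led by *COL1A2*, was 420189, 465445, 483482 and 318333 in the control channel and 408363, 448482, 435207 and 320548 in the GO channel, with the GO channel lower on 3 arrays. Of the 9, 1 passed, beside 8.79% over all genes, and the median log2 ratio was 0.04. The gene that passed was *PDGFRA*, at 0.87 ± 0.48 (SD, n = 4) with an adjusted p of 0.0198 in limma, named after its values were seen. Both of its probes were called, and the call was lost without array 2 (adjusted p of 0.0740) and without the pairing by array (0.86, adjusted p of 0.159). The list depended on scaling, with 4 genes called higher when centring replaced lowess. With normexp and loess *PDGFRA* was not called, at 0.37, while *COL1A2*, named after its values were seen, was called higher, at 0.40. By the processed ratios all 9 probes of *COL1A2* had negative means, down to -0.42, and 2 of them were called lower. Of the 2 probes of *DCN*, 1 was called higher, at 0.42. *FAP* (0.24) was higher and *COL3A1* (-0.10) lower on all 4 arrays, and neither passed. The 2 probes of *COL1A1* lay at -0.20 and 0.32, with 0 called. *DCN*, *FAP*, *COL3A1* and *COL1A1* were named after their values were seen. The part of fibroblasts in the member results was not tested.

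Most of the tested satellite cell and muscle genes were called lower in GO-treated cells. Of 13, 12 were tested and 8 passed, all lower, with a median log2 ratio of -0.55. Over all genes, 5.44% were called lower. The other tested genes of the list, *MYOD1*, *CKM*, *TNNT1* and *TMEM8C*, did not pass. *MYF5*, a factor of committed myoblasts, had -0.93 ± 0.04 (SD, n = 4) with an adjusted p of 0.00102 in limma, and all 6 probes were called. *MYOG*, which drives differentiation, had -0.40 ± 0.11 (SD, n = 4) with an adjusted p of 0.0123, and was not called with normexp, with centring in place of lowess or without the pairing by array, nor without array 2 (-0.38) or array 3 (-0.36). *PAX7*, the marker of quiescent satellite cells, was not above background. The other genes that passed were *DES*, *CDH15*, *NCAM1*, *MYH3*, *MYH8* and *ACTA1*, named after their values were seen, with means from -1.08 to -0.49. Of these, *DES* lost its call without array 2 (-0.59), and *CDH15* without array 2, 3 or 4 (-0.50, -0.45 and -0.39). The summed signal, led by *MYH3*, was 168901, 224518, 200636 and 163778 in the control channel and 126303, 136761, 113122 and 97143.4 in the GO channel, lower on every array. The number of genes called lower was 7 with normexp, 4 with centring in place of lowess and 3 without the pairing by array. With centring, *MYH3* was -0.15 and *ACTA1* -0.08 and neither was called, against -0.83 and -0.64 with lowess. *MYF5* (-0.94), *MYH8* (-1.07), *NCAM1* (-0.54) and *CDH15* (-0.45) were still called lower with centring. The cause of the difference was not tested. The part of the muscle genes in the member results was also not tested.

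*GAPDH*, a glycolytic enzyme often used as a reference, had a mean of -0.04 ± 0.13 (SD, n = 4) with an adjusted p of 0.738 in limma. It was 0.34 with normexp and loess, 0.89 and called with centring in place of lowess, and -0.15 without the pairing by array. The ratio of *IL18* moved less between scalings, to -0.51 with normexp and loess and -0.54 with centring in place of lowess.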

How the data were processed

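Gene expression was measured on 4 dual-color Agilent horse arrays from 1 slide, each with GO-treated cells in Cy5 and control cells in Cy3. RNA had an integrity number of at least 9.2. Scanned images were quantified by the authors in Feature Extraction (version 10.10.1.1, per the file headers). Each deposited file holds intensity values (raw means, local backgrounds and processed signals). Processed signals had the background subtracted and detrended and the dyes normalized by linear and lowess steps. Each file also holds, as deposited, the log10 ratio of processed Cy5 to processed Cy3. The whole-series values of the authors were exactly equal to these, with no tolerance, in 180880 of 180880 cases. Here they were turned into log2 ratios.

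Control spots (1417 per array) and outlier spots (10 to 19 per array) were dropped, and for 50 probes with more than 1 spot the mean was used. Such a probe was above background if at least a share of 0.5 of its spots was. No spot was saturated. A probe was tested if above background on all 4 arrays in at least 1 channel. Tests used limma (version 3.58.1) in R (version 4.3.3), with lmFit on an intercept and eBayes, and Benjamini-Hochberg adjustment. Tables were read with data.table (version 1.17.8) and figures drawn with matplotlib (version 3.10.9) and pandas (version 2.3.3). The code was tested on simulated data. The count of genes, also in the lists, used the brightest tested probe of each gene. Signal over local background had a median of 3.66 to 4.22 for control and of 2.85 to 4.37 for GO. The number of arrays limits the precision.

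Symbols came from the array files for 24935 probes, from RefSeq's table for assembly TB-T2T (names only) for 1890 and from descriptions for 75, and 16703 probes had none. Coordinates are those of the files, on EquCab1. Exons, UTRs and the genome sequence were not analysed here.

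The channels of an array deviated together from their group means, with correlations over 26833 probes of 0.60, 0.86, 0.73 and 0.48 on arrays 1 to 4, against -0.54 to 0.24 between channels of different arrays. The ratio within an array pairs them. Labels and methods do not settle whether the arrays hold separate cultures or horses, so p-values measure only the spread between these samples, which may be technical. An exact permutation of the signs of 4 arrays cannot give a two-sided p under 1 in 8. The slide held all arrays and could not be tested as a batch.

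The members and lists were chosen with earlier results of these data known. Genes named were all members, up to 5 genes per pathway list with the largest ratios among those called with 1 sign on all arrays, a fixed set of 12 genes, and the 3 genes nearest to *IL-1RII* and *IL6*. Genes outside this rule were also named, after their values were seen. Alternatives were normexp (offset 50) with loess, median centring without lowess, no filter and a stricter filter on dim probes, the plain one-sample test, no pairing by array, array weights, the mean over probes of a gene, leaving out each array, and a signal floor. The normexp offset is added to both channels and shrinks the ratios of dim probes by construction.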

Additional observations from a re-analysis of the deposited data

Results flagged for a closer look

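In 7 of 78 groups of 4 arrays, 1 array lay far from the other arrays. Chance alone gives about 1 in 20 such groups, but this does not hold where the other 3 values are listed at 0, as in 4 of the 7, so the count is not read against it. Of the *IL1RN* probes, the one at base 307 had a log2 ratio of -0.17 on array 1, the one at base 308 had -3.14 on array 1, the one at base 309 had -0.31 on array 4 and the one at base 1429 had 0.90 on array 2, while the other arrays of each were listed at 0. *NFKBIE* had -0.23 on array 1, above its values of -0.50, -0.49 and -0.50 on arrays 2 to 4. *IL36RN*, an antagonist of the IL-36 receptor that was too dim to be tested, had -0.29 on array 1, with 0.30, 0.39 and 0.28 on the other arrays. The brightest tested probe of *CCL20* had 3.60 on array 3, with -1.19, -1.07 and -0.41 on arrays 1, 2 and 4.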

How the results depend on the processing

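*IL-1RII* kept its direction and its call under all 11 alternatives that gave a value, with ratios from 0.53 (normexp with loess) to 1.67, and from 1.56 to 1.67 on leaving out 1 array. *IL1RAP* and *IL18* kept their direction in each alternative with a value. *IL6* had the opposite sign with median centring, at -0.00518, where the cause was not tested. The stricter filter, which asks for both channels above background on all arrays, left 24604 probes, and *IL-1RII*, *IL1RAP* and *IL6* were not tested there, so 1 member gene passed in place of 3, *IL18*. Under the other alternatives, leaving out 1 array included, 2 to 3 member genes passed. Probes past both thresholds numbered 2399, against 1297 with normexp and loess, 908 with no filter on dim probes (43603 tested) and 147 by the plain one-sample test. Without the replicate block, that is without pairing the channels by array, they numbered 874, and the pathway genes past the thresholds were 2 in place of 10. On leaving out 1 array, with the same probes tested, the count of probes ran from 1566 to 2430 and that of pathway genes from 4 to 8. Pathway genes past the thresholds were 3 with normexp and loess, 3 with no filter and 1 by the plain test. Of the probes called, 37.3% were higher in GO-treated cells, against 51.3% of 3390 with median centring. The share was 26.8% without the pairing by array and 19.7% by the plain one-sample test. The causes were not tested, apart from the fewer or additional probes that a filter leaves. The signal floor was chosen after seeing the data. It is higher in the GO channel, so that a probe at the floor in both channels reads 0.44 by construction. Dim signals limit these results, since all tested member probes but that of *IL18* had signals of at most 87.8 in both channels.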
